A study of Mus musculus with 2 samples.

Results

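The serpin genes of mouse back skin were compared between skin injected with FGF18, a secreted fibroblast growth factor made in the hair follicle, and skin injected with phosphate-buffered saline (PBS). All probes outside the controls whose gene name in the scanner files begins with Serpin were taken, which gave 55 genes with 73 probes, of 27577 genes and 41165 probes in all. The genes were sorted by the clade letter in their symbol.

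Serpins are a family of structurally alike proteins, most of which stop a protease by acting as its bait. The protease cuts an exposed loop of the serpin, the loop snaps into the body of the protein, and the protease is trapped and distorted. Clade A and clades C to G are mainly secreted and control clotting, clot breakdown, complement and leukocyte enzymes, clade B serpins act mainly inside cells, and some members, such as the collagen chaperone Serpinh1, inhibit nothing. Skin is rich in them, because keratinocytes carry many clade B members and shed their cornified layer through kallikrein proteases. In mice several genes that are single in humans are expanded into clusters of neighbouring paralogs, and a probe may bind the transcript of a close relative as well.

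The FGF18 array held RNA of full-thickness dorsal skin from male C3H/HeN mice at an age of 61 days, whose hair follicles had been brought into anagen, the growth phase, by depilation 5 days before, and which had received 1 µg of FGF18 under the skin on day 4, that is 24 h before sampling. The PBS array held the same tissue from mice of the same strain, sex, age and depilation schedule that had received PBS on that day. The labels count 3 mice but do not tie this number to a group, and the sources differ on whether RNA was pooled before or extracted mouse by mouse. The PBS sample has telogen, the resting phase, in its title and anagen in its source name and hair cycle entry. With 1 array per group there is no spread between animals, so no test was made, and every ratio below describes these arrays alone.

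Each array had 43379 probe spots, of which 27050 (62.4%) stood well above background with FGF18 and 26665 (61.5%) with PBS, and 0 were saturated. Defining markers of skin were present: all 7 basal keratinocyte genes, all 8 fibroblast genes and all 11 hair shaft and inner root sheath genes were measured on both arrays. The values are processed signals in arbitrary fluorescence units, given as the reading with FGF18 and the reading with PBS. Ratios are log2 of FGF18 over PBS after each array was divided by its 75th percentile, a signal of 1020 with FGF18 and 899 with PBS. This scaling lowers every log2 ratio by 0.18 relative to the raw signals, so that a gene can have the larger signal with FGF18 and still a ratio below 0. A signal level is not comparable between different probes, so each gene was compared only with itself, and a sum over a list was compared only with the sum of the same probes on the other array. In bulk skin, more cells of a type and more RNA per cell cannot be told apart.

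Of the 55 serpin genes, 38 were measured on both arrays, Serpina1c on the FGF18 array only, Serpina11 on the PBS array only, and 15 on neither. By probe, 46 of 73 (63.0%) were measured on both arrays, against 59.1% of all probes. The 15 dim genes were Serpina1b, Serpina1f, Serpina3a, Serpina4-ps1, Serpina5, Serpina6, Serpina7, Serpinb3d, Serpinb9b, Serpinb9c, Serpinb9d, Serpinb9f, Serpinb9g, Serpind1 and Serpini2, with probe signals of 4.82 to 26.6 on the FGF18 array and 4.99 to 32.3 on the PBS array. They include the genes of protein C inhibitor (Serpina5), of the plasma carriers of corticosteroid and thyroid hormones (Serpina6 and Serpina7) and of the thrombin inhibitor heparin cofactor II (Serpind1). For these genes no ratio is given, and a dim signal does not show that the transcript was absent.

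No serpin gene measured on both arrays reached 2-fold: 0 of 38 were at least 2-fold higher on the FGF18 array, where 1.54% of all 16610 measured genes were, and 0 were at least 2-fold lower, where 0.987% were, which makes 2.53% of all genes in either direction. At 1.5-fold, Serpinb1b, Serpinb1c and Serpina3n were higher (3 of 38, or 7.89%, against 3.79% of all genes), and Serpina12, Serpina1d and Serpina9 were lower (3 of 38, against 4.82% of all genes). Together these were 15.8% of the measured serpins, against 8.61% of all genes. The median log2 ratio of the 38 genes was -0.06, with a range of -0.85 to 0.76, and that of all genes was -0.07, with a central 95% range of -0.75 to 0.73. Of the 38 genes, 34 lay inside that central range, 21 lay above the all-gene median and 17 below it. The SD was 0.40 over the serpin genes and also 0.40 over all genes. As a family the serpins were thus spread about the same centre as the other genes, without a shared direction.

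**Figure D1:**
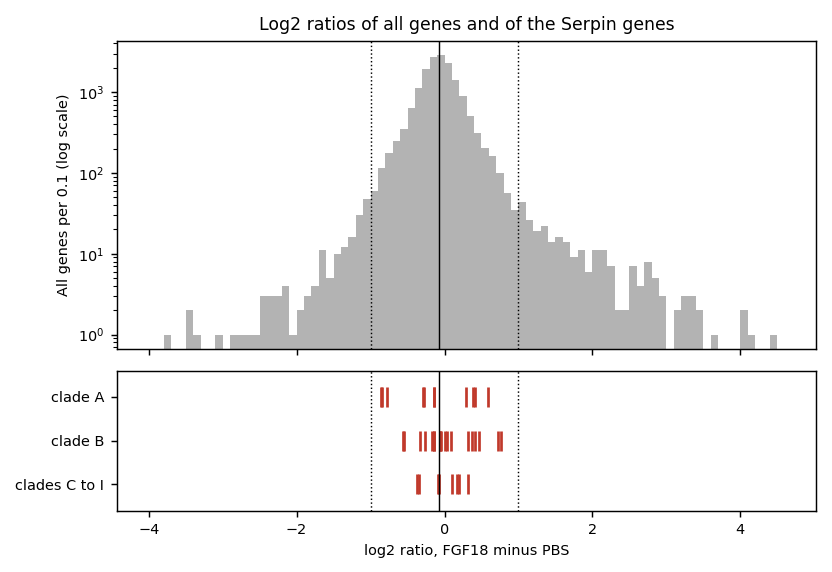
Upper panel: number of genes (log scale) per 0.1 of log2 ratio, FGF18 minus PBS, for the 16610 genes measured on both arrays. Lower panel: the ratio of each of the 38 serpin genes as a tick, in rows for clade A (11 genes), clade B (19) and clades C to I (8). The solid line is the all-gene median of -0.07 and the dotted lines mark 2-fold, which no tick passes.

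Ratios this small have to be read beside the technical error. Probes printed at least 8 times gave an SD between spots of the log2 ratio of 0.17 for signals under 100 (18 probes), 0.070 for signals up to 1000 (62 probes) and 0.032 above that (95 probes). The scanner software's own error estimate was wider, at 0.14 to 0.44 on the log2 scale for the 38 serpin ratios, with a median of 0.20. For a gene with 2 or more measured probes, the probe errors were combined as if independent. This generally makes the error of such a gene smaller than that of 1 probe. By that estimate 13 of the 38 genes (34.2%) lay more than 2 errors from the all-gene median, 7 above and 6 below, against 17.1% of all genes. More than 3 errors away were Serpinb1b, Serpinb1c, Serpinb2 and Serpina3n above it and Serpina9 and Serpina1d below it, which is 15.8% of the family against 8% of all genes. Serpinb2 was past 3 errors only by its combined error of 0.14, since each of its probes had an error of 0.20. Neither the SD between spots nor the software error includes the difference between mice or between RNA preparations. The 8 serpin genes with 2 measured probes had gaps between their probes of 0.0043 to 0.63, with a median of 0.11, against a median of 0.16 over all 4183 genes with 2 measured probes.

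The words higher and lower refer to the 75th-percentile scale. Over 7 other scalings and sources of the values, 16 serpin genes kept a ratio above 0 and 11 kept one below 0. The sign turned in at least 1 of those settings for Serpina10, Serpina3c, Serpinb13, Serpinb3a, Serpinb3c, Serpinb6a, Serpinb6c, Serpinb8, Serpinf2, Serpinh1 and Serpini1, for which ratios are given without a direction. Scaling to 8 spike-in probes, added after the data were seen, would add 0.79 to every log2 ratio, after which only Serpina12 and Serpina1d of the 38 would stay below 0. Positions relative to the all-gene median are not altered by that shift.

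**Figure D2:**
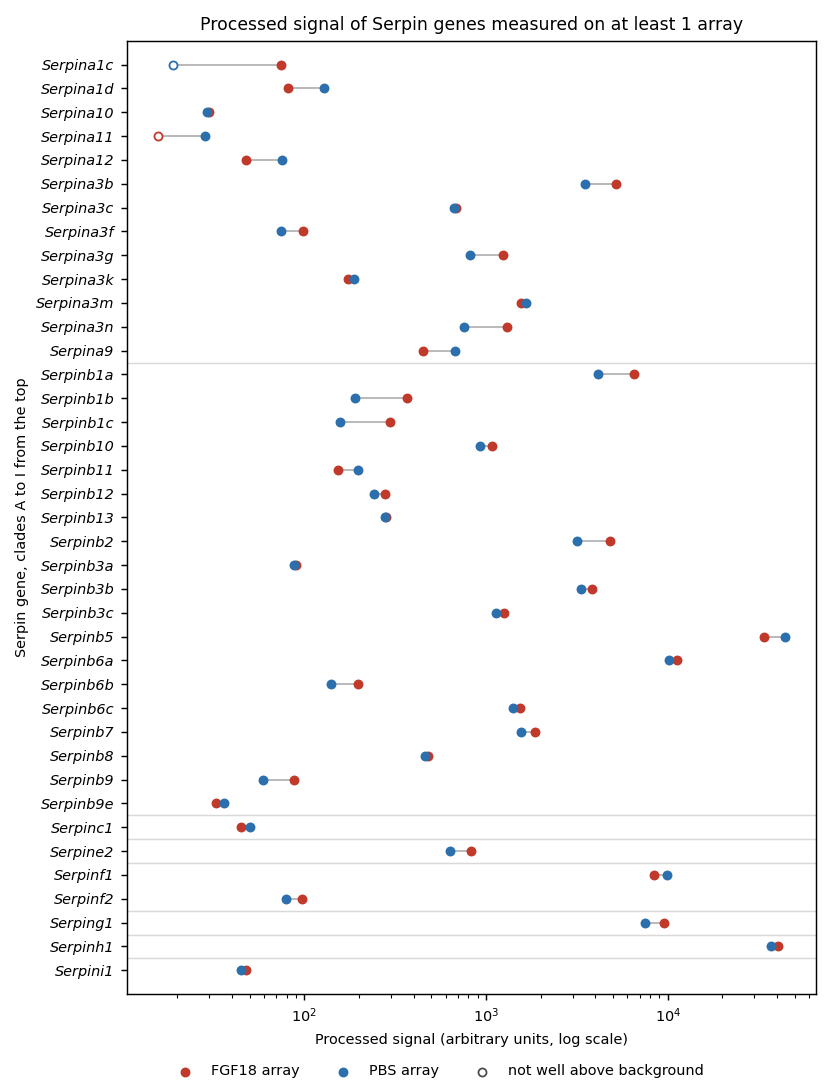
Processed signal (arbitrary units, log scale) of the serpin genes measured on at least 1 array, with 1 gene left out, in clade order from the top. Each gene has a red point for the FGF18 array and a blue point for the PBS array; an open point was not well above background. The red points lie clearly to the right for Serpina1c, Serpinb1a, Serpinb1b, Serpinb1c and Serpina3n, among others, and to the left for Serpina11, Serpina12, Serpina1d and Serpina9, and distances should be compared within a gene only.

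Clade A went both ways. Its 20 genes, of which all but the X-linked Serpina7 lie on chromosome 12, had 11 measured on both arrays, with a median log2 ratio of -0.14 and a range of -0.85 to 0.59. Among these the higher genes were all in the Serpina3 cluster, the mouse expansion of the human gene for α1-antichymotrypsin. Of the 8 cluster genes filed under a Serpin name 7 were measured on both arrays, at a median of 0.29. A probe filed under another name and now assigned to Serpina3j was at 0.14 and is not among these.

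Serpina3n, an acute-phase inhibitor of granzyme B and leukocyte elastase, had a signal of 1300 with FGF18 and 759 with PBS. It was 1.51-fold higher, a log2 ratio of 0.59 with a software error of 0.20, and 3.71% of all genes had a larger ratio. Serpina3g, which protects cells from cathepsins released inside them, had signals of 1240 with FGF18 and 821 with PBS and was 1.33-fold higher. Serpina3b was 1.31-fold higher, at signals of 5210 with FGF18 and 3500 with PBS. These 3 were the cluster members with 1 probe each and a ratio above 0 in every scaling compared.

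Serpina3f was less certain, because its probes disagreed. One probe read 86.2 with FGF18 and 50.2 with PBS, a log2 ratio of 0.60, and the other read 111 and 98.9, a ratio of -0.02. Their mean was 0.29. Serpina3k and Serpina3m were slightly lower, at -0.29 (173 with FGF18, 187 with PBS) and -0.28 (1550 with FGF18, 1660 with PBS), each about 1 software error below the all-gene median. Serpina3c had signals of 688 with FGF18 and 670 with PBS, a ratio of -0.14. The cluster thus held neighbours on both sides of the all-gene median, 4 above and 3 below among the genes filed under a Serpin name.

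Serpina3n and Serpina3c are shown side by side because they differ in their readout while their promoters are nearly the same. The windows, from RefSeq on GRCm38.p6, run from 250 bases before to 50 after the annotated start, Serpina3n at chr12:104406458-104406757 on the plus strand and Serpina3c at chr12:104153823-104154122 on the minus strand. Aligned to each other, 275 of 300 bases (91.7%) were identical, and capitals mark the 25 bases of each window without an identical partner.
Serpina3n: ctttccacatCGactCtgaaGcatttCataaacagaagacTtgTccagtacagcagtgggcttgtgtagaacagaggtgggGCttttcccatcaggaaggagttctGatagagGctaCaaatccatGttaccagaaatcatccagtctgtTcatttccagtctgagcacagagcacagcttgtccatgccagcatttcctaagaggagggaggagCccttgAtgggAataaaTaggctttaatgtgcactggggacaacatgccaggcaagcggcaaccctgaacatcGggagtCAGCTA
Serpina3c: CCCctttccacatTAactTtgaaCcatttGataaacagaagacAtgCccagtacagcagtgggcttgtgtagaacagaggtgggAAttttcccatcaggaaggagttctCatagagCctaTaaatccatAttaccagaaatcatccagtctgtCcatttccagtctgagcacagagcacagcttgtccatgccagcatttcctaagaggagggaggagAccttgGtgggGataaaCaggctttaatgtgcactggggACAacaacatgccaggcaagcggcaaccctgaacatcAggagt
The log2 ratios that go with these windows were 0.59 for Serpina3n and -0.14 for Serpina3c. The differing bases are scattered through the window, with runs at its ends where the windows are offset. Which base, if any, bears on the transcript level was not tested.

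The Serpina1 paralogs encode mouse α1-antitrypsin, the main plasma inhibitor of neutrophil elastase, made chiefly in liver. In skin their signals were low and pointed in opposite directions. Serpina1d had signals of 80.9 with FGF18 and 128 with PBS and was 1.79-fold lower, a log2 ratio of -0.84 with a software error of 0.24. Serpina1c had a signal of 74.7 with FGF18 and 18.9 with PBS, where it was not well above background, and was at least 2.72-fold higher. A bound of this kind sets the measured value against the higher of the dim reading itself and the floor of that array, the lowest signal among its probes well above background, which was 23.3 with FGF18 and 24.2 with PBS. It is approximate, because a dim reading can exceed the floor, as Serpind1 did at 32.3 with PBS, and spot error is not included. Serpina1b and Serpina1f were dim on both arrays.

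Their promoter windows are given because these paralogs are nearly alike while their readouts were opposite. Serpina1c lies at chr12:103904901-103905200 and Serpina1d at chr12:103773584-103773883, both on the minus strand of GRCm38.p6 (RefSeq). In the alignment 265 of 300 bases (88.3%) were identical, and capitals mark the 35 bases of each window without an identical partner.
Serpina1c: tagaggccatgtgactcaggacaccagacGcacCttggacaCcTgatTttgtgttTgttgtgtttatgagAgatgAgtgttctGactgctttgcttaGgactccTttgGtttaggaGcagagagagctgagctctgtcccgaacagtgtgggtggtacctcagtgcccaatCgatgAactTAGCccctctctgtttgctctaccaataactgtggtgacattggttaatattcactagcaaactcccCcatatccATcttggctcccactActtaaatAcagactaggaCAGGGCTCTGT
Serpina1d: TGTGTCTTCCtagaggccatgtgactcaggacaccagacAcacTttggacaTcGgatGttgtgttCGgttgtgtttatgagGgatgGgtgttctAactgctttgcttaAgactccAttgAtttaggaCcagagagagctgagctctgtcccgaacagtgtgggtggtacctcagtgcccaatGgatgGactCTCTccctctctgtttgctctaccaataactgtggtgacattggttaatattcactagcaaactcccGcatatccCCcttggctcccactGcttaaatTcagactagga
With 1 probe for each gene and no signal above 128, the opposite readouts have no further probe beside them.

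The other measured clade A genes lay below the all-gene median. Serpina12, the adipokine vaspin, which inhibits kallikrein 7, had signals of 47.6 with FGF18 and 75.8 with PBS and was 1.81-fold lower. Its log2 ratio was -0.85, with a software error of 0.32, and 1.67% of all genes were lower. With normexp background correction it was -0.50, under 1.5-fold. Serpina9, known as centerin from germinal-centre B cells, was 1.71-fold lower, at signals of 450 with FGF18 and 679 with PBS. Its software error of 0.21 was smaller than those of Serpina12 and Serpina1d. Serpina10, an inhibitor of clotting factor Xa, was near the floor at 29.8 with FGF18 and 29.0 with PBS. Serpina11 read 15.7 on the FGF18 array, not well above background, and 28.5 on the PBS array. After scaling, its PBS reading was 1.39-fold above the floor of the FGF18 array.

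Since many clade A serpins are liver products, hepatocyte markers were read beside them. Of 11 markers, 5 were measured on both arrays, at a median of 0.37, with 0 past 2-fold, and the sum of their signals was 3084 with FGF18 and 2055 with PBS. Most of that sum came from Cyp2e1, which other tissues also express, at 2780 with FGF18 and 1800 with PBS. Cyp2e1 was also highest at 0.45 and Tat lowest at -0.19, while Apoa1, Apoa2, Ttr, Fga, Fgb and Fgg were dim on both arrays. The part of these markers in the clade A values was not tested.

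**Figure D3:**
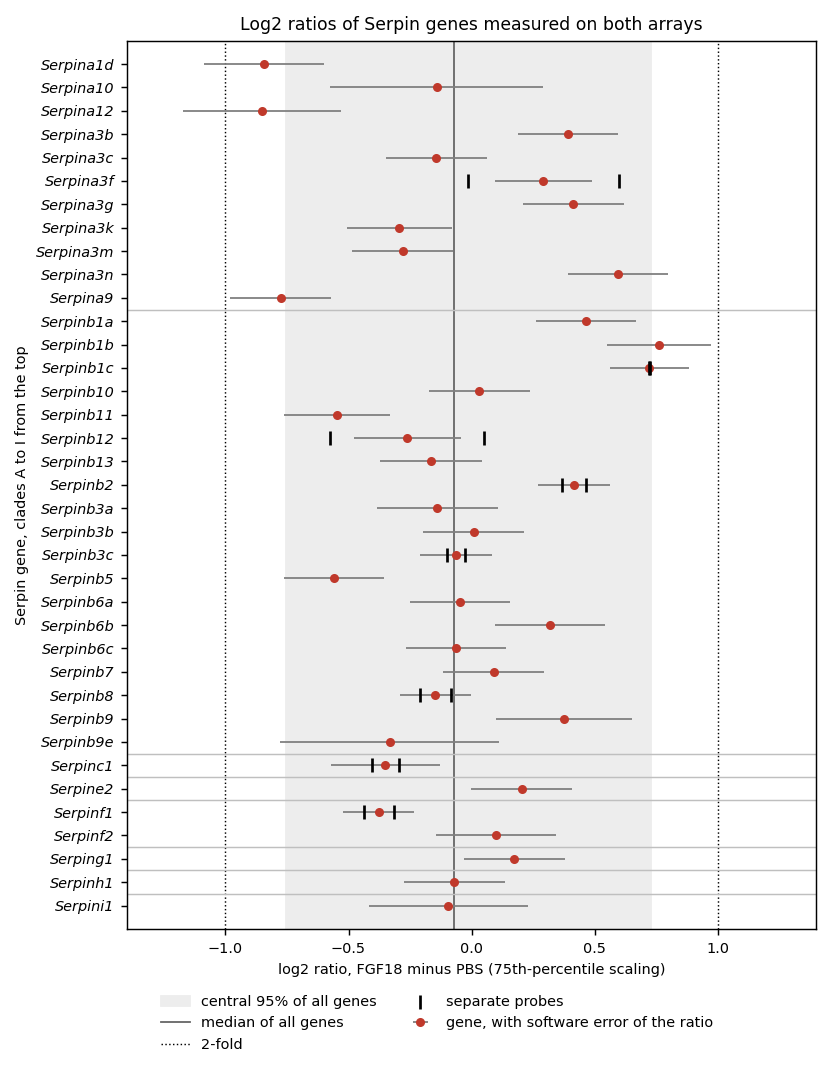
Log2 ratio, FGF18 minus PBS, of the serpin genes measured on both arrays, with 1 gene left out (points), with the scanner software's error of the ratio (bars) and the separate probes where a gene has 2 (black ticks). The grey band is the central 95% of all genes, -0.75 to 0.73, and the solid line their median of -0.07. Serpinb1b lies right of the band and Serpina12, Serpina1d and Serpina9 left of it, and no point reaches the dotted lines at 2-fold.

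Clade B was read by chromosome. Of its 25 genes 19 were measured on both arrays, at a median log2 ratio of -0.05 and a range of -0.56 to 0.76. The 8 measured genes on chromosome 13 had a median of 0.35, with 7 above the all-gene median and 1 below. Of the 7, 3 were the Serpinb1 paralogs. Serpinb6a and Serpinb6c lay within 1 software error of the all-gene median, and Serpinb6c changed side between scalings. The 11 measured genes on chromosome 1 had a median of -0.14, with 5 above and 6 below. Many of these also lay within 1 software error of the all-gene median. This split between the chromosomes was noticed in the values and got no test.

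The Serpinb1 genes, relatives of the human monocyte and neutrophil elastase inhibitor, were all higher, at a median of 0.72. Serpinb1a, which blocks neutrophil elastase, proteinase 3 and cathepsin G, had signals of 6510 with FGF18 and 4160 with PBS and was 1.38-fold higher. Serpinb1b was 1.69-fold higher, at signals of 367 with FGF18 and 191 with PBS. Its log2 ratio of 0.76, with a software error of 0.21, was the highest among the serpins measured on both arrays, and 2.33% of all genes had a larger one. That value rests on 1 probe. The other Serpinb1b probe was dim on both arrays, at 7.2 with FGF18 and 6.61 with PBS. With it averaged in, without a filter on dim probes, the Serpinb1b ratio was 0.35. Serpinb1c was 1.65-fold higher, and its probes gave the same answer: 474 with FGF18 and 253 with PBS for one, 116 and 62.1 for the other, both at a log2 ratio of 0.72. With normexp background correction the ratios of Serpinb1b, Serpinb1c and Serpina3n were 0.54, 0.46 and 0.53, above 0 but under 1.5-fold.

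Their target proteases were dim or near the centre of all genes. Elane and Prtn3, the genes of neutrophil elastase and proteinase 3, were dim on both arrays, and Ctsg, cathepsin G, read 78.8 with FGF18 and 81.9 with PBS, a log2 ratio of -0.24. These targets were chosen after their values were seen. Of 12 neutrophil and mast cell serine proteases 6 were measured on both arrays, with 0 past 2-fold and a median of -0.18, from Tpsb2 at -0.35 to Cma1 at 0.12. Neutrophil markers, 5 of 8 measured on both arrays, had a median of -0.34 with Cxcr2 lowest at -0.61 and S100a8 alone past 2-fold, at 986 with FGF18 and 246 with PBS, and the sum of their signals was 2989 with FGF18 and 2326 with PBS. Their part in the Serpinb1 values was not tested.

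The clade B serpins that restrain cytotoxic granule enzymes were higher, by less than 1.5-fold at the probes measured on both arrays. Serpinb9, which inhibits granzyme B in the cells that release it and in bystander cells, had signals of 87.6 with FGF18 and 59.5 with PBS at the probe measured on both, 1.30-fold higher with a software error of 0.28 on the log2 scale. Its other probe read 80.9 with FGF18 and 28.7 with PBS, where it was not well above background. Set against that dim reading it was 2.49-fold higher, with a software error of 0.37 on the log2 scale. Serpinb6b, an inhibitor of granzyme A, had 198 with FGF18 and 140 with PBS and was 1.25-fold higher. Both ratios stayed above 0 in the 8 scalings and sources compared. With normexp background correction they were smaller, at log2 ratios of 0.14 for Serpinb9 and 0.17 for Serpinb6b. Without that correction, Serpinb9 lay 1.62 and Serpinb6b 1.74 software errors above the all-gene median. The Serpinb9 value was 0.84 when its other probe was averaged in, without a filter on dim probes. The paralog Serpinb9e, at 32.6 with FGF18 and 36.2 with PBS, had a log2 ratio of -0.33 with an error of 0.44, and 5 further Serpinb9 paralogs were dim on both arrays.

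Some granule enzymes differed far more than these inhibitors. Gzmb, granzyme B, had a signal of 1430 with FGF18 and 58.1 with PBS, 21.7-fold higher. Prf1, the pore former perforin, was 3.34-fold higher, at signals of 213 with FGF18 and 56.2 with PBS. Gzma, granzyme A, was at least 19.1-fold higher, reading 523 with FGF18 and a dim 18.0 with PBS. Of 11 granzyme and perforin genes 5 were measured on both arrays, 2 of them at least 2-fold higher and 0 lower, with a median of 0.63 and Gzmc lowest at -0.57.

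Markers of cytotoxic lymphocytes went both ways. Of 11 markers 7 were measured on both arrays, at a median of 0.83 and with 2 at least 2-fold higher, and Klrb1c and Ncr1 were measured on the FGF18 array only. The sum of the measured signals was 2546 with FGF18 and 1466 with PBS. Klrk1, a receptor of natural killer cells, was highest at a log2 ratio of 1.41 and Cd3g, a T cell receptor subunit, lowest at -0.49. Cd3e at -0.45 and Cd2 at -0.16 also lay below the all-gene median, and Cd8a and Eomes were dim on both arrays. Their part in the values of Serpinb9, Serpinb6b and Serpina3n was not tested.

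The promoters of Serpina3g and Serpinb9 are shown because the interferon response stood out on these arrays, with 16 of 19 listed genes at least 2-fold higher, 0 lower, a median log2 ratio of 2.38 and a range of 0.53 (Irf1) to 3.41 (Rsad2). Serpina3g lies at chr12:104235897-104236196 and Serpinb9 at chr13:33004291-33004590, both on the plus strand of GRCm38.p6 (RefSeq, 250 bases before to 50 after the start). Capitals in the Serpina3g window mark an NF-kB match that begins at position -85 from the start and a GAS match, the letters of a gamma-interferon-activated site, at -33. Capitals in the Serpinb9 window mark an ISRE core match, the letters of an interferon response element, at -46 and on the opposite strand.
Serpina3g: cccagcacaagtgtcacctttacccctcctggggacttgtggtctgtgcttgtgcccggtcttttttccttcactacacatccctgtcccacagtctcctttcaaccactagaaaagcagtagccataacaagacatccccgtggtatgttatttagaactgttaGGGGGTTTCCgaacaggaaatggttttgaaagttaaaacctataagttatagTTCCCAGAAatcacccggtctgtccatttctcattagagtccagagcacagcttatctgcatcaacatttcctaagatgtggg
Serpinb9: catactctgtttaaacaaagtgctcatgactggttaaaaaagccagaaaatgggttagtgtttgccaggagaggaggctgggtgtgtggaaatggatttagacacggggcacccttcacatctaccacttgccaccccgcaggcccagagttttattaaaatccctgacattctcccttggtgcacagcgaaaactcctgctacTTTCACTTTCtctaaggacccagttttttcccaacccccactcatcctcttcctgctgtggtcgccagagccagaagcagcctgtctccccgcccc
At probes measured on both arrays Serpina3g was 1.33-fold and Serpinb9 1.30-fold higher. Their log2 ratios of 0.41 and 0.38 lie below the lowest of the 19 interferon genes, but with its other probe averaged in Serpinb9 was at 0.84, above that lowest gene. Serpinb6a, not shown, had an ISRE core match and GAS matches and a log2 ratio of -0.05. Whether any of these letters bears on a transcript level was not tested.

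Such letters are common enough to need a background. On either strand, TTCNNNGAA (GAS) occurred in 10 of 53 serpin windows (18.9%), against 8.29% of 32817 promoter windows, and the ISRE core, read as GAAA, any 2 bases and GAAA again, in 3 (5.66%), against 3.43%. TGANTCA (AP-1) occurred in 11 (20.8%), against 7.81%, and the NF-kB motif in 2 (3.77%), against 4.50%. Windows were found for 45 of the 55 genes. Windows of 1 gene overlap and paralogs share sequence, so these shares do not count independent promoters. The measured genes with a GAS match were Serpina3f, Serpina3g, Serpinb2 and Serpinb6a, with ratios of -0.05 to 0.42, and the 8 with an AP-1 match ranged from -0.84 to 0.42, on both sides of the all-gene median. The measured genes with an ISRE core match were Serpinb9 at 0.38 and Serpinb6a at -0.05, and those with an NF-kB match Serpina3g at 0.41 and Serpinh1 at -0.07.

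On chromosome 1, 1 gene stood above and 2 stood below the all-gene median by more than 2 software errors. Serpinb2, plasminogen activator inhibitor 2, an intracellular serpin of keratinocytes and activated macrophages, was 1.33-fold higher, and its probes agreed: 5340 with FGF18 and 3650 with PBS for one, 4240 and 2710 for the other. Serpinb5, the non-inhibitory epithelial serpin maspin, was 1.47-fold lower, at signals of 34100 with FGF18 and 44300 with PBS. Serpinb11 was 1.46-fold lower, at signals of 153 with FGF18 and 197 with PBS. The log2 ratios were 0.42 for Serpinb2, -0.56 for Serpinb5 and -0.55 for Serpinb11.

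The remaining chromosome 1 genes were close to the all-gene median. Serpinb7, or megsin, had 1870 with FGF18 and 1550 with PBS (0.09), and Serpinb10, or bomapin, had 1080 with FGF18 and 932 with PBS (0.03). Serpinb13, which inhibits cathepsins K and L, had 282 with FGF18 and 279 with PBS (-0.17), and Serpinb8, an inhibitor of furin, had means over its probes of 477 with FGF18 and 462 with PBS (-0.15). Among relatives of the human squamous cell carcinoma antigens, Serpinb3b had 3820 with FGF18 and 3350 with PBS (0.01), Serpinb3c had 1256 with FGF18 and 1142 with PBS (-0.06), and Serpinb3a had 90.1 with FGF18 and 87.5 with PBS (-0.14). These genes were all within 1 software error of the all-gene median. Serpinb12, which inhibits trypsin-like proteases, was split between its probes, 528 with FGF18 and 449 with PBS (0.05) against 26.5 and 34.8 (-0.57), with a mean of -0.26.

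Serpinb6a, an inhibitor of cathepsin G, and Serpinb6c, both on chromosome 13, were at nearly the all-gene median too. Serpinb6a had 11200 with FGF18 and 10200 with PBS (-0.05), and Serpinb6c had 1530 with FGF18 and 1410 with PBS (-0.06).

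Epidermal markers were read beside the keratinocyte serpins. The 9 measured markers of suprabasal and cornified keratinocytes, of 10, had a median of -1.02 with 6 at least 2-fold lower and 0 higher, and the sum of their signals was 323468 with FGF18 and 418999 with PBS. The 7 basal keratinocyte markers had a median of -0.06 with 0 past 2-fold, and summed to 461978 with FGF18 and 426550 with PBS. The 11 hair shaft and inner root sheath markers had a median of -0.84 with 5 at least 2-fold lower. The part of these markers in the Serpinb5, Serpinb11 and Serpinb12 values was not tested.

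The proteases of the cornified layer had a lower median than the serpins. Of 17 listed epidermal kallikreins, channel-activating and related proteases 13 were measured on both arrays, at a median of -0.73. Casp14 (1040 with FGF18, 2070 with PBS) and Klk6 (817 with FGF18, 1510 with PBS) were at least 2-fold lower and 0 higher. Casp14, a caspase, was also among the suprabasal and cornified markers that were at least 2-fold lower. Corin was highest at 0.49. Klk7, the target of Serpina12 and chosen after its value was seen, was 1.64-fold lower as the mean of probes from -1.01 to -0.56. The lower Serpina12 reading thus lay beside a lower reading of its target.

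The small clades C to I were near the centre, with 8 of 10 genes measured on both arrays and a median of 0.01. Serpine2, protease nexin 1, an inhibitor of thrombin that dermal papilla cells make, had 829 with FGF18 and 635 with PBS and was 1.15-fold higher. Serpinf2, the plasmin inhibitor antiplasmin, had 96.7 with FGF18 and 79.6 with PBS (0.10), and Serpini1, neuroserpin, had 47.5 with FGF18 and 44.7 with PBS (-0.09). These 3 were within 2 software errors of the all-gene median.

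Lists that hold their targets along with receptors, cofactors and other partners had medians close to the centre. Of 15 plasminogen activation genes 13 were measured on both arrays, with 0 past 2-fold and a median of -0.03, from Lrp1 at -0.48 to Plat, tissue plasminogen activator, at 0.28. Plau, urokinase, and its receptor Plaur, both chosen after their values were seen, were at -0.05 and -0.03. Of 22 genes listed for coagulation and contact proteases 15 were measured on both arrays, with 0 past 2-fold and a median of -0.06. They ran from F13a1, which is not a protease, at -0.72 to F7 at 0.81. F7 lay outside the central 95% of all genes. Plasminogen itself (Plg) was measured with PBS only and prothrombin (F2) with FGF18 only, both chosen after their values were seen, so neither has a ratio. Serpinc1, antithrombin, had means over its probes of 44.6 with FGF18 and 50.5 with PBS, a ratio of -0.35 with an error of 0.22. Platelet markers, a further source of serpins, had 3 of 7 genes measured on both arrays, at a median of -0.63, and their part in these values was not tested.

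Serping1, the C1 inhibitor, which restrains the complement proteases C1r and C1s as well as plasma kallikrein, had 9570 with FGF18 and 7480 with PBS and a log2 ratio of 0.17. Its targets C1ra and C1s1 were 1.46- and 1.34-fold higher, chosen after their values were seen. The 11 measured of 13 complement genes had a median of 0.02 with 0 past 2-fold, from Masp1 at -0.44 to C2 at 0.62.

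Serpinf1, pigment epithelium-derived factor, a secreted non-inhibitory serpin that limits blood vessel growth, was 1.30-fold lower. Its probes read 15400 with FGF18 and 18400 with PBS, a log2 ratio of -0.44, and 1330 and 1460, a ratio of -0.32. Both probes lay below the all-gene median. The mean was more than 2 software errors from it by the combined error of 0.14. Each probe alone had an error of 0.20, and neither was more than 2 such errors away. The 8 fibroblast markers had a median of -0.24 with 0 past 2-fold, and the 7 endothelial markers a median of 0.10, and their part in this value was not tested.

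Serpinh1, the collagen chaperone of the endoplasmic reticulum, was at the all-gene median. It had 40300 with FGF18 and 37300 with PBS, a log2 ratio of -0.07 with an error of 0.20. Genes of collagen chains and collagen folding, all 26 measured, had a median of -0.23 with 0 past 2-fold, from Col1a2 at -0.75 to P3h1 at 0.41. Col1a2 and Col1a1, the chains of type I collagen that the chaperone helps to fold, lay below it at -0.75 and -0.74, Col1a1 being chosen after its value was seen.

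Among genes measured on both arrays, other protease inhibitors and the cathepsins contained larger differences than the serpins. Of 28 inhibitor genes outside the family 21 were measured on both arrays, at a median of -0.32, with 2 at least 2-fold higher and 0 lower. Timp1, an inhibitor of matrix metalloproteases, was 3.07-fold higher (mean signals of 5067 with FGF18 and 1512 with PBS), and Slpi, a secreted inhibitor of leukocyte elastase, was 2.47-fold higher (823 with FGF18, 294 with PBS). Spink5, which blocks epidermal kallikreins, was lowest at -0.89. All 13 cathepsin genes were measured, at a median of -0.06, with Ctse at least 2-fold lower at -1.16 and Ctss highest at 0.99.

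**Figure D4:**
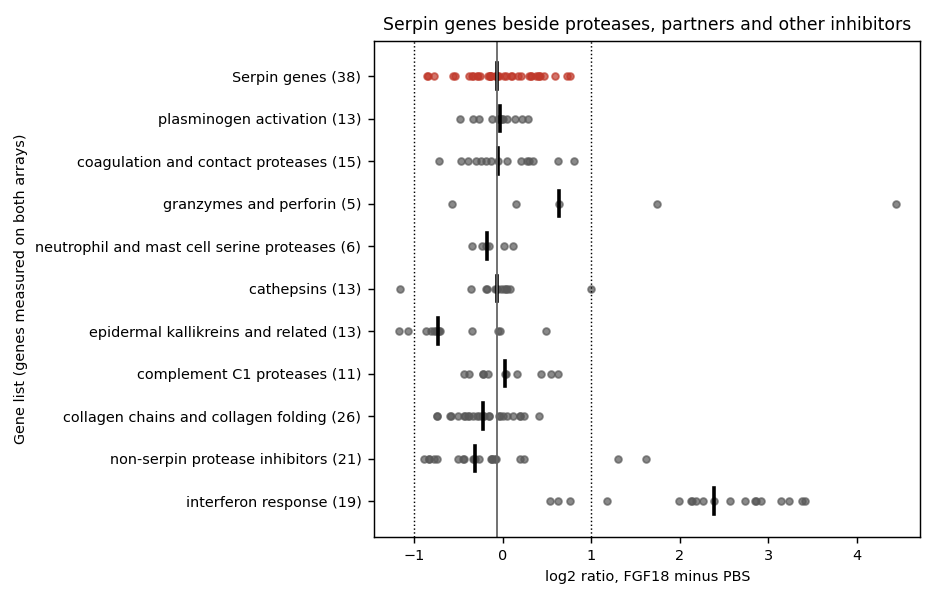
Log2 ratio, FGF18 minus PBS, of the 38 serpin genes (red, top row) and of 10 lists of proteases, partners, other inhibitors and interferon-response genes (grey), with each list's number of genes measured on both arrays. Each point is a gene, the black bar a list's median, the solid line the all-gene median of -0.07 and the dotted lines 2-fold. The serpin row is centred at -0.06, the epidermal protease row at -0.73 and the interferon row at 2.38.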

How the data were processed

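RNA of 2 mouse skin samples was hybridised to 1 single-colour array each, both on 1 slide and in 1 scan, and groups were taken from the source names. Per the file headers, Agilent Feature Extraction 9.5.3.1 quantified the images (protocol GE1-v5_95_Feb07, design 014868). The deposited intensity values include mean signal, local background and a background-subtracted processed signal. The deposited files also hold other columns, such as background, saturation and outlier flags. The deposited value table is a ratio, which on comparison was the processed signal over the array's median spot (83.8 for FGF18, 80.0 for PBS).

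Here, log2 processed signals were scaled to each array's 75th percentile, control and outlier-flagged spots were dropped, spots of a probe were averaged, and then the log2 ratios of a gene's probes. Probes counted as measured on an array if 0.5 or more of their spots were flagged as well above background. Names came from a RefSeq table (GRCm38.p6; 23368 probes by accession, 6732 by symbol, 2907 by synonym, 8158 kept). The files name no genome build, so only promoter windows carry coordinates. Software: Python 3.11.15, pandas 2.3.3, statsmodels 0.14.6, R 4.3.3 and limma 3.58.1 for normexp.

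Members are named, with values where measured on an array, except 1 gene that is counted in the totals and not reported here. Of the lists of proteases, partners, other inhibitors and interferon genes the highest, the lowest and up to 3 further genes past 2-fold were named. Markers were named without a rule, after their values were seen. Members and lists were chosen with earlier results of these data known. No columns of sample values were left unmapped (0), and the steps were tested on simulated data. Alternatives were 5 scalings, normexp with an offset of 50, the value table, 3 filters on dim probes, the brightest or median probe, folds of 1.5 and 3 and, chosen after seeing the data, spike-in scaling.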

Additional observations from a re-analysis of the deposited data

How the results depend on the processing

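No paired analysis was possible because each group has 1 array and the shared replicate number 1 carries no pairing. The number of serpin genes at least 2-fold higher stayed at 0 in all scalings planned, with normexp, the value table, a signal over 100 and either probe rule. It was 1 with genes measured on at least 1 array, 3 without a filter on dim probes, 3 at a fold of 1.5 and 11 with spike-in scaling. The number at least 2-fold lower was 1 with genes measured on at least 1 array, 1 without a filter, 3 at a fold of 1.5 and 0 with the other settings. The median serpin ratio was 0.12 without scaling and 0.73 with spike-in scaling, against all-gene medians of 0.11 and 0.72. The share of all genes past 2-fold, 2.53%, was 1.41% with normexp, 5.67% with genes of at least 1 array, 6.12% without a filter, 8.61% at a fold of 1.5, 0.963% at a fold of 3 and 14.8% with spike-in scaling. Among those genes 61.0% were higher, against 64.3% to 78.5% under the other scalings, normexp and the value table, 72.1% with a signal over 100, 56.3% with genes of at least 1 array, 46.8% without a filter and 98.9% with spike-in scaling. At 1.5-fold, 3 serpins higher and 3 lower under 75th-percentile scaling became 0 and 2 with normexp (2.26% and 2.48% of all genes), 6 and 3 without scaling (6.67% and 2.38%), 3 and 1 with a signal over 100 (3.26% and 3.14%), 5 and 4 with genes of at least 1 array (6.02% and 6.88%), 8 and 5 without a filter (5.84% and 7.996%) and 27 and 0 with spike-in scaling (72.0% and 0.355%). The all-gene median shifted by 0.10 with median scaling, 0.18 without scaling, 0.11 with the value table and -0.11 without a filter. The cause of these shifts was not tested. Signals near the floor limit the 15 dim genes and the bounds.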

Other observations

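Several probes outside the Serpin names belong to the family by their current symbol or description and were noticed after the values were seen. The angiotensinogen gene Agt, a non-inhibitory serpin, had a signal of 903 with FGF18 and 704 with PBS (log2 ratio 0.18). The probe now assigned to Serpina3j read 615 with FGF18 and 492 with PBS (0.14), and that assigned to Serpinb6d 1850 with FGF18 and 1960 with PBS (-0.27). The cDNA AK046232, described as similar to clade E member 2, read 40.5 with FGF18 and 74.3 with PBS, a log2 ratio of -1.06, whereas the probe named Serpine2 was at 0.20. The probe named LOC628916 read 323 with FGF18 and 217 with PBS (0.39), and that named LOC667984 read 193 with FGF18 and 138 with PBS (0.30). The probe now assigned to Serpine3 was dim on both arrays.

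Marker lists not set beside a serpin group gave the following. Macrophage markers, all 9 measured, had a median of -0.22 with 2 at least 2-fold higher, Fcgr1 highest at 2.72. Mast cell markers, 7 of 8 measured on both arrays, had a median of -0.06 with Hdc 2.79-fold higher. Sebaceous gland markers had a median of -0.02 over 4 of 6 genes, adipocyte markers 0.20 over 6 and skeletal muscle markers 0.20 over 8, with 0 past 2-fold in these 3 lists.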
